A study of Homo sapiens with 9 samples.

Results

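The 10 genes described here encode the proteins of the small nucleolar ribonucleoproteins (snoRNPs) together with a pair of nucleolar partners. They were chosen by name: FBL, NOP56, NOP58 and SNU13 of the box C/D particle, DKC1, GAR1, NHP2 and NOP10 of the H/ACA particle, and NOLC1 and NCL. Each name matched 1 of the 60234 Ensembl gene identifiers in the count table, and all 10 passed the filter on low counts that left 15847 genes for testing. RNA sequencing was done on Ramos cells, a line of EBV-negative Burkitt lymphoma, kept in medium with serum. Cells were taken after 3 h or 6 h in 3 µM CHIR99021, an inhibitor of the kinase GSK-3, and untreated cells served as the 0 h group, with 3 biological replicates in each group. No untreated cells were taken at 3 h or 6 h, so exposure to the compound and time in culture cannot be told apart. The series title is about transient stabilisation of MYC in B cell lymphoma.

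A snoRNP is a guide RNA bound by a fixed set of proteins, and it modifies ribosomal RNA in the nucleolus. Box C/D particles add a methyl group to the ribose of the base that the guide pairs with, and H/ACA particles turn uridine into pseudouridine. Many guide RNAs of both kinds are cut from introns of genes for nucleolar and ribosomal proteins, the snoRNP protein genes included. Burkitt lymphoma cells carry MYC next to an immunoglobulin locus. MYC is a known activator of ribosome production genes, and GSK-3 is a known kinase of the MYC protein.

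A fixed list of 13 guide RNAs, with no search for others, was placed by the annotation within 4 of the 10 genes: 5 in NOP56, 3 in NOP58, 3 in NCL and 2 in DKC1. The messages of all 4 were among those that rose most, and 1 guide each is shown for NOP56, NCL and DKC1. None is shown for NOP58, because the letters searched for the C box were not found in SNORD70, the guide looked at there. Capitals mark the C box and the D box of the box C/D guides, the places where SNU13 and its partners assemble, and the ACA box near the 3′ end of the H/ACA guide. Sequences are from GRCh38, 5′ to 3′, and the boxes were found as exact letters, ATGATGA or GTGATGA for the C box. The D box was the last CTGA and the ACA box the last 3 bases.
SNORD57, within NOP56, chr20:2656939-2657010, plus strand: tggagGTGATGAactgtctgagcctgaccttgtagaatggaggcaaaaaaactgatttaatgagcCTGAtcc
SNORD82, within NCL, chr2:231460371-231460440, minus strand: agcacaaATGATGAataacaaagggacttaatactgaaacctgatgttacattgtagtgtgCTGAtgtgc
SNORA56, within DKC1, chrX:154774998-154775126, plus strand: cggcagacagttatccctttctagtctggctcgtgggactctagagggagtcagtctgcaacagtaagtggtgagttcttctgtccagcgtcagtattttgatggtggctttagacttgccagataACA

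The libraries held 46359911 to 52880876 reads in genes. All 8 B cell markers were detected, with a summed level of 2920 to 2969 CPM at 0 h, 2955 to 3022 CPM at 3 h and 3281 to 3424 CPM at 6 h. Of the 8, 4 rose and 3 fell at 3 h, where 32.8% of all tested genes rose and 33.5% fell. Their log2 fold changes ran from -1.02 to 0.57 at 3 h and from -0.68 to 0.95 at 6 h. No marker of T cells, myeloid cells or epithelial cells and fibroblasts passed the filter, and the highest count of any of them in a library was 7. The transcriptome changed widely: 66.3% of the tested genes passed an adjusted p of 0.05 at 3 h against 0 h, and 70.8% at 6 h against 0 h. A gene that passes is therefore ordinary in this series, and the size of a change and its rank among all genes say more than the call. MYC itself averaged 558 CPM at 0 h, 447 CPM at 3 h and 349 CPM at 6 h, a log2 fold change of -0.32 at 3 h and -0.68 at 6 h (edgeR adjusted p = 9.36e-05 and 4.50e-08). Levels are given as CPM, counts scaled to a fixed library size with TMM factors. Each is a share of the RNA of bulk cells, in which fewer cells and less RNA per cell cannot be told apart.

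Of the 10 genes, 9 rose and 0 fell at 3 h against 0 h, where 32.8% of all tested genes rose and 33.5% fell. At 6 h against 0 h all 10 rose, where 35.7% of all tested genes rose and 35.0% fell. Their median log2 fold change was 0.95 at 3 h and 0.96 at 6 h, beside -0.01 and 0.02 over all tested genes. In rank at 3 h, NOP10 lay above 50.4% of tested genes, FBL 65.2%, NHP2 65.4%, SNU13 77.2% and GAR1 87.3%. NOP56, NOP58, NCL, DKC1 and NOLC1 lay above 97.3% to 99.0% at that time. By 6 h the ranks ran from 63.7% for NOP10 and 75.7% for FBL to 98.6% for NCL. At 3 h, 5 of the 10 rose by at least 2-fold, as did 4.95% of all tested genes, and at 6 h 4 of the 10 did, as did 6.44% of all tested genes. The libraries of the 10 genes did not overlap in 8 cases at 3 h, against 34.8% of all tested genes that were higher without overlap, and in all 10 cases at 6 h, against 36.2%. Between 6 h and 3 h, 6 of the genes were higher at 6 h, 2 were lower at 6 h and 2 did not pass, beside 21.5% of all tested genes higher and 21.9% lower (43.4% in either direction). Without overlap of libraries 7 were higher and 2 lower at 6 h than at 3 h, as were 27.2% and 28.0% of all tested genes. A test of any difference among the 3 times passed for all 10, and for 77.7% of all tested genes.

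The 10 genes did not move as one. NOP56 and NOP58 were highest at 3 h and lower again at 6 h. NCL, DKC1 and NOLC1 were more than 2-fold higher at 3 h and stayed high at 6 h. GAR1, SNU13, FBL and NHP2 had smaller rises at 3 h and further rises by 6 h, and NOP10 passed the test at 6 h only.

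**Figure D1:**
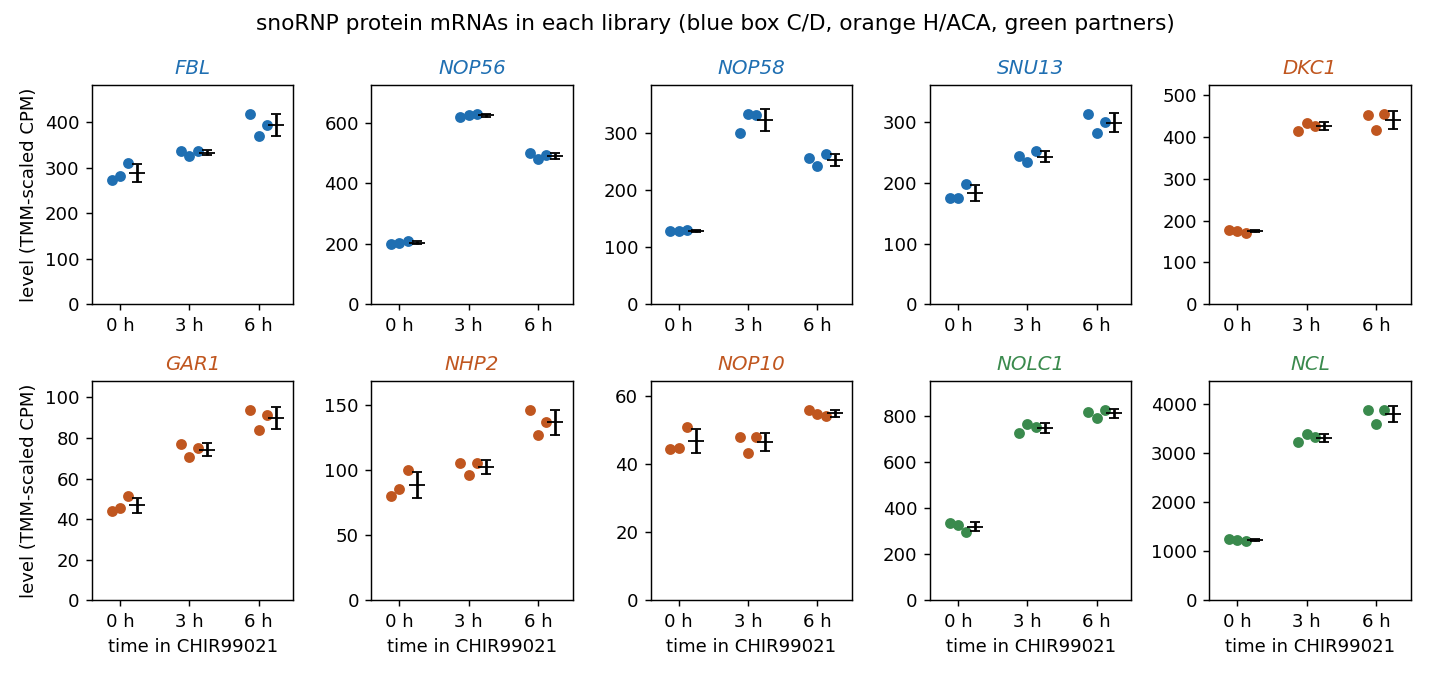
Level of each of the 10 messages in every library, in TMM-scaled CPM on axes from 0, at 0 h, 3 h and 6 h in CHIR99021; points are libraries and the bars beside them give mean ± SD (n = 3). NOP56 and NOP58 peak at 3 h, NCL, DKC1 and NOLC1 reach a high level by 3 h, and NOP10 stays between 43.3 and 55.9 CPM.

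Among the box C/D proteins, the NOP56 and NOP58 messages rose most at 3 h. NOP56 (ENSG00000101361, chr20:2652145-2658393, plus strand) is one of the pair of related scaffold proteins that bridge the guide RNA and the methyltransferase. NOP56 was at 200, 203 and 207 CPM at 0 h, at 618, 624 and 630 CPM at 3 h, and at 499, 480 and 493 CPM at 6 h. The 3 groups were apart, with 3 h the highest and each group narrow. NOP56 rose by 1.62 on the log2 scale (SE 0.043, edgeR adjusted p = 9.84e-12) at 3 h against 0 h, a 3.06-fold difference that was above 99.0% of the tested genes. The 6 h level was 2.41-fold above 0 h, and the 6 h over 3 h difference was -0.35 on the log2 scale (SE 0.042, adjusted p = 2.24e-05).

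NOP58 (ENSG00000055044, chr2:202265716-202303666, plus strand) is the second scaffold protein of the pair. NOP58 was at 128, 127 and 130 CPM at 0 h, at 300, 334 and 332 CPM at 3 h, and at 255, 242 and 263 CPM at 6 h. The groups again did not overlap, and the order was 3 h, then 6 h, then 0 h. The log2 fold change was 1.32 (SE 0.054) at 3 h and 0.98 (SE 0.053) at 6 h against 0 h. Its 6 h over 3 h difference was -0.35 (SE 0.053, edgeR adjusted p = 0.000142), so both scaffold messages dropped by nearly the same amount after 3 h.

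FBL (ENSG00000105202, chr19:39834458-39846414, minus strand) encodes fibrillarin, the methyltransferase of the particle. FBL was at 273, 282 and 310 CPM at 0 h, at 336, 326 and 336 CPM at 3 h, and at 419, 370 and 393 CPM at 6 h. No library overlapped between groups, but untreated replicate 3 stood nearest to the 3 h level. FBL rose by 0.21 on the log2 scale (SE 0.058, edgeR adjusted p = 0.00629) at 3 h and 0.45 (SE 0.058, adjusted p = 8.78e-06) at 6 h. With upper-quartile factors or library size alone in place of TMM the 3 h change of FBL was 0.053 and 0.0041 and did not pass (adjusted p = 0.429 and 0.951).

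SNU13 (ENSG00000100138, chr22:41673930-41690504, minus strand) binds the kink-turn of box C/D RNAs and of U4 snRNA, and is thus shared with the spliceosome. SNU13 was at 176, 175 and 198 CPM at 0 h, at 244, 234 and 252 CPM at 3 h, and at 314, 283 and 301 CPM at 6 h. It stepped up at each time with no overlap. SNU13 rose by 0.41 on the log2 scale (SE 0.060, edgeR adjusted p = 3.24e-05) at 3 h, 0.71 (SE 0.060) at 6 h, and 0.30 (SE 0.060, adjusted p = 0.00113) between 6 h and 3 h. The gene C22orf46 overlaps SNU13 on the other strand and the strand setting of the counting was not given, so some of these reads may belong to either gene.

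Among the H/ACA proteins, the DKC1 message rose most and NOP10 least. DKC1 (ENSG00000130826, chrX:154762742-154777689, plus strand) encodes dyskerin, the pseudouridine synthase, which is also a part of telomerase and is mutated in dyskeratosis congenita. DKC1 was at 177, 176 and 171 CPM at 0 h, at 415, 434 and 427 CPM at 3 h, and at 452, 416 and 456 CPM at 6 h. Both treated groups were far above 0 h and overlapped each other. DKC1 rose by 1.28 on the log2 scale (SE 0.049, edgeR adjusted p = 8.34e-11) at 3 h and by 1.34 (SE 0.049) at 6 h. The 6 h over 3 h difference was 0.05 (SE 0.048, adjusted p = 0.403), which did not pass.

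GAR1 (ENSG00000109534, chr4:109815510-109824740, plus strand) joins the particle late in its assembly and helps product release. GAR1 was at 44.0, 45.3 and 51.1 CPM at 0 h, at 77.2, 70.6 and 75.0 CPM at 3 h, and at 94.0, 83.9 and 91.5 CPM at 6 h. The groups did not overlap and rose in order of time. GAR1 rose by 0.67 on the log2 scale (SE 0.066, edgeR adjusted p = 7.25e-07) at 3 h, 0.94 (SE 0.066) at 6 h and 0.27 (SE 0.065, adjusted p = 0.00399) between 6 h and 3 h.

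NHP2 (ENSG00000145912, chr5:178149460-178153967, minus strand) is the RNA-binding H/ACA protein related to SNU13. NHP2 was at 80.2, 85.0 and 99.8 CPM at 0 h, at 105, 96.0 and 105 CPM at 3 h, and at 146, 126 and 136 CPM at 6 h. Untreated replicate 3 lay above the lowest 3 h library, while the 6 h libraries lay above all others. The log2 fold change was 0.21 (SE 0.079, edgeR adjusted p = 0.0320) at 3 h, 0.63 (SE 0.079, adjusted p = 8.95e-06) at 6 h and 0.42 (SE 0.079, adjusted p = 0.000875) between 6 h and 3 h. The 3 h call of NHP2 was lost without untreated replicate 1 (adjusted p = 0.143), untreated replicate 2 (0.106), 3 h replicate 5 (0.0882) or 3 h replicate 7 (0.0885), and its log2 fold change was 0.0060 with library size alone.

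NHP2 reads are uncertain in another way, since a retained copy, NHP2P1, also passed the filter. NHP2P1 averaged 16.7 CPM at 0 h, 20.0 CPM at 3 h and 26.6 CPM at 6 h, with a log2 fold change of 0.26 at 3 h and 0.67 at 6 h, and reads of near-identical copies may be split between them. The gene RMND5B overlaps the end of NHP2. NCLP1, a copy of NCL, was at 0.338 CPM at 0 h, 0.897 CPM at 3 h and 1.21 CPM at 6 h on average, far below NCL. Of 8 such copies of the 10 genes in the table, those 2 were tested.

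NOP10 (ENSG00000182117, chr15:34341713-34343177, minus strand) is the smallest H/ACA protein and packs against the catalytic domain of dyskerin. NOP10 was at 44.5, 44.7 and 50.7 CPM at 0 h, at 47.9, 43.3 and 47.9 CPM at 3 h, and at 55.9, 54.5 and 54.1 CPM at 6 h. The 3 h and 0 h libraries overlapped, and the 6 h libraries were above both groups. On the log2 scale NOP10 differed from 0 h by -0.01 (SE 0.062, edgeR adjusted p = 0.919) at 3 h and by 0.23 (SE 0.061, adjusted p = 0.00360) at 6 h. The 6 h call did not hold with upper-quartile factors (0.087, adjusted p = 0.248) or with library size alone (-0.0016, adjusted p = 0.983), 2 scalings that lower the median of all tested genes at 6 h to -0.13 and -0.22.

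NCL and NOLC1 had the highest mean CPM of the 10 at each time, and both rose by more than 2-fold. In untreated replicate 3 FBL was above NOLC1. NOLC1 (ENSG00000166197, chr10:102152176-102163871, plus strand) encodes Nopp140, a chaperone that binds both kinds of particle in the nucleolus and in Cajal bodies. NOLC1 was at 336, 326 and 296 CPM at 0 h, at 723, 764 and 752 CPM at 3 h, and at 815, 788 and 826 CPM at 6 h. The treated groups were far above 0 h, and the 6 h libraries were above the 3 h libraries. NOLC1 rose by 1.22 on the log2 scale (SE 0.054, edgeR adjusted p = 2.72e-10) at 3 h and by 1.34 (SE 0.054) at 6 h. At 6 h over 3 h it was 0.12 (SE 0.053, adjusted p = 0.0890), which did not pass, but without untreated replicate 3 it was 0.12 with an adjusted p of 0.0171.

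NCL (ENSG00000115053, chr2:231453531-231483641, minus strand) encodes nucleolin, an abundant RNA-binding protein of the nucleolus that acts in ribosomal RNA transcription and early processing. NCL was at 1246, 1231 and 1216 CPM at 0 h, at 3227, 3379 and 3319 CPM at 3 h, and at 3885, 3600 and 3881 CPM at 6 h. The 3 groups did not overlap and the 6 h libraries were the highest. NCL rose by 1.43 on the log2 scale (SE 0.048, edgeR adjusted p = 3.46e-11) at 3 h and 1.62 (SE 0.048, adjusted p = 6.22e-12) at 6 h, which was above 98.6% of the tested genes. Between 6 h and 3 h it was 0.20 (SE 0.047, adjusted p = 0.00406).

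**Figure D2:**
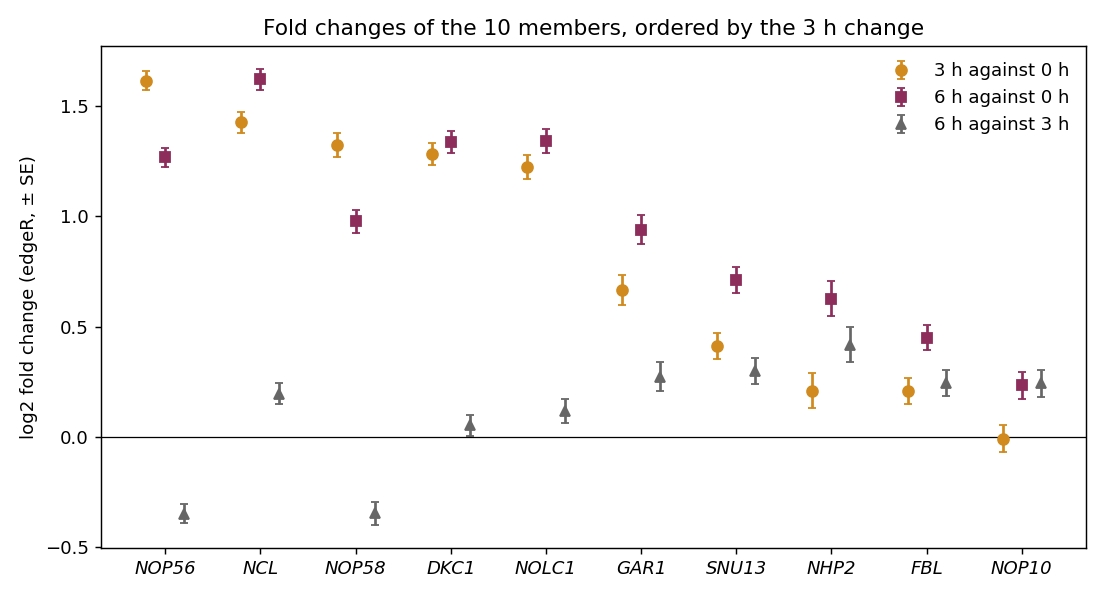
Log2 fold change (edgeR, ± SE) of each of the 10 genes for 3 h against 0 h, 6 h against 0 h and 6 h against 3 h, ordered by the 3 h change. NOP56 leads at 3 h with 1.62 and NCL at 6 h with 1.62, and NOP56 and NOP58 are the only 2 of the 10 below 0 between 6 h and 3 h.

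Added together, the 10 messages took 0.298%, 0.297% and 0.304% of the reads in genes at 0 h, 0.583%, 0.609% and 0.603% at 3 h, and 0.639%, 0.620% and 0.645% at 6 h. Every library at 3 h and 6 h lay far above every library at 0 h. NCL made up a growing part of the sum: it supplied 45.4% of the reads of the 10 genes at 0 h, 53.1% at 3 h and 56.1% at 6 h on average. The share of reads from mitochondrial genes averaged 2.94% at 0 h, 2.67% at 3 h and 2.43% at 6 h, and without those reads the 10 genes took 0.309%, 0.615% and 0.650% on average.

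Per kilobase of transcript, NCL was the most abundant of the 10 at every time, with means of 305, 820 and 939 CPM per kb at 0 h, 3 h and 6 h (SD 3.67, 18.9 and 40.5, n = 3). GAR1 was the least abundant, at 38.2, 60.7 and 73.4 CPM per kb (SD 3.11, 2.76 and 4.30). FBL came next to NCL with 249, 287 and 340 CPM per kb, and NOP56 followed it at 3 h with 260 CPM per kb, against 84.8 CPM per kb at 0 h, where SNU13 was next to FBL with 122 CPM per kb. The order at 0 h went on with NHP2 (102), the trio named next, NOP58 (62.9) and DKC1 (56.8 CPM per kb), and by 3 h DKC1 had passed NHP2 and NOP10 with 138 CPM per kb, against their 118 and 83.7 CPM per kb. At 0 h NOP56 (84.8), NOP10 (84.1) and NOLC1 (80.5 CPM per kb) did not differ beyond their spread, and at 6 h NOP56 (204.3), NOLC1 (204.1) and SNU13 (199 CPM per kb) did not. These orders depend on the length used. With the union of all exons as the length, NCL stayed first and GAR1 last, but FBL came behind NOLC1 at 3 h and 6 h. NOP56 then averaged 37.7, 116 and 90.8 CPM per kb at 0 h, 3 h and 6 h, which put it last but for GAR1 at 0 h and below NOP10 and NOLC1 (84.1 and 80.5 CPM per kb). At 6 h it was likewise below NOLC1 and SNU13 (204.0 and 102 CPM per kb), so the ties above hold for the single transcript only.

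Since the proteins of a particle are bound in a fixed set, the ratios between their messages within a library were also set side by side. These ratios do not depend on the scaling of libraries, and another choice of length would multiply a ratio by the same factor at all times. Any effect of a library that goes with transcript length would stay in them, as the paired transcripts differ in length. NOP56 per kb over FBL per kb averaged 0.342 ± 0.016 at 0 h, 0.906 ± 0.018 at 3 h and 0.602 ± 0.025 at 6 h (SD, n = 3), and no library overlapped between times. NOP58 over FBL followed the same course with 0.254 ± 0.014, 0.549 ± 0.038 and 0.365 ± 0.018. SNU13 over FBL moved through a narrower range, with 0.489 ± 0.0096 at 0 h, 0.564 ± 0.012 at 3 h and 0.586 ± 0.0068 at 6 h. The scaffold messages NOP56 and NOP58 thus gained on the enzyme message, mostly at 3 h. NOP56 over NOP58 averaged 1.35 ± 0.017 at 0 h, 1.65 ± 0.087 at 3 h and 1.65 ± 0.047 at 6 h, so the 2 treated groups overlapped in that ratio.

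In the H/ACA set the ratios over NOP10 were also higher at 3 h and 6 h than at 0 h. NOP10 had the lowest log2 fold change of its set at both times, and FBL that of the box C/D set. That ratios over either were above those at 0 h is thus fixed by the choice of denominator. DKC1 over NOP10 averaged 0.678 ± 0.061 at 0 h, 1.66 ± 0.13 at 3 h and 1.45 ± 0.071 at 6 h, with no overlap between times. GAR1 over NOP10 averaged 0.454 ± 0.0060 at 0 h, 0.725 ± 0.014 at 3 h and 0.741 ± 0.038 at 6 h, and only the treated groups overlapped. NHP2 over NOP10 was 1.21 ± 0.053, 1.41 ± 0.0083 and 1.59 ± 0.095. At 0 h the DKC1 message was below the NOP10 message per kb in all 3 libraries, and at 3 h and 6 h it was above it in all 6. NOLC1 over NCL declined with time, with 0.264 ± 0.014 at 0 h, 0.229 ± 0.0014 at 3 h and 0.217 ± 0.0048 at 6 h.

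**Figure D3:**
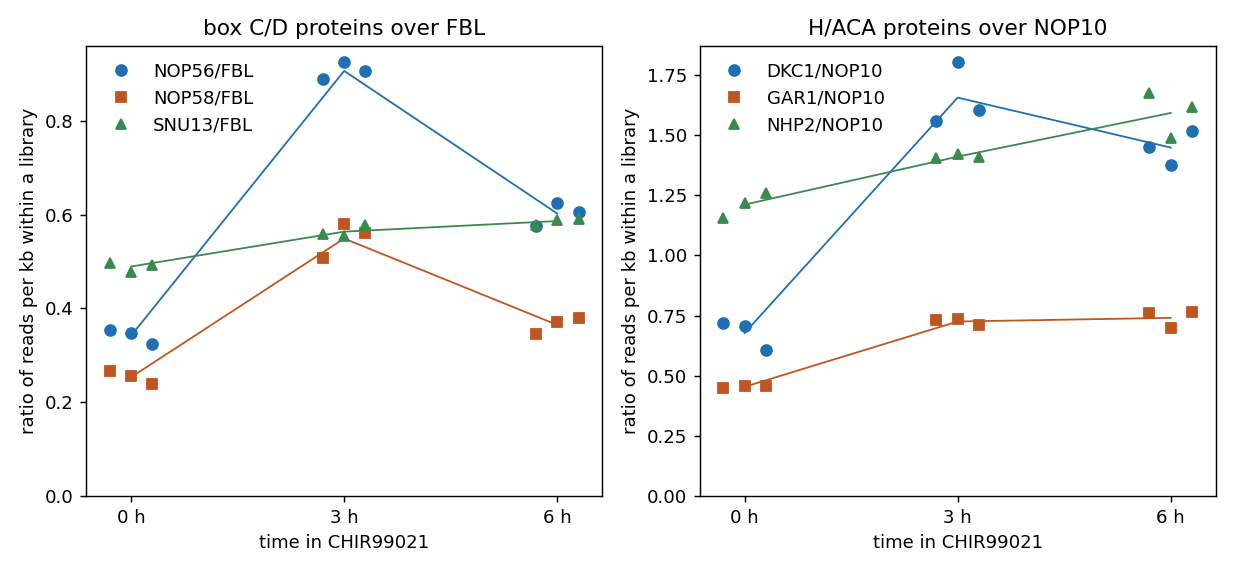
Ratio of reads per kb within each library, for NOP56, NOP58 and SNU13 over FBL on the left and for DKC1, GAR1 and NHP2 over NOP10 on the right, at 0 h, 3 h and 6 h; points are libraries and lines join the means of 3. NOP56 over FBL peaks at 3 h at 0.906, and DKC1 over NOP10 lies below 1 at 0 h and above 1 at 3 h and 6 h.

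The size of the rise went with transcript length among the 10, a pattern seen after the values were known. The 5 genes that rose most at 3 h, NOP56, NCL, NOP58, DKC1 and NOLC1, have transcripts of 2046 to 4034 bases, and the other 5 have transcripts of 554 to 1503 bases. Over all tested genes of the same lengths the medians were close: the median log2 fold change at 3 h was -0.01 for 5112 genes in the longer range and -0.03 for 3135 genes in the shorter range, and at 6 h it was -0.01 and 0.05. At 3 h, 36.5% of those longer genes and 25.2% of those shorter genes passed as higher, and 37.6% and 28.7% passed as lower. With the trends over length and GC content removed, the 3 h change was 1.67 for NOP56, 1.38 for NCL, 0.30 for FBL, 0.30 for NHP2 and 0.01 for NOP10. In untreated replicate 3 the 5 shorter genes stood 0.16 to 0.27 log2 units above the mean of the other 2 untreated libraries, and NOLC1 stood at -0.16. Without that library the log2 fold change of NOP10 at 3 h was 0.05 (edgeR adjusted p = 0.383).

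**Figure D4:**
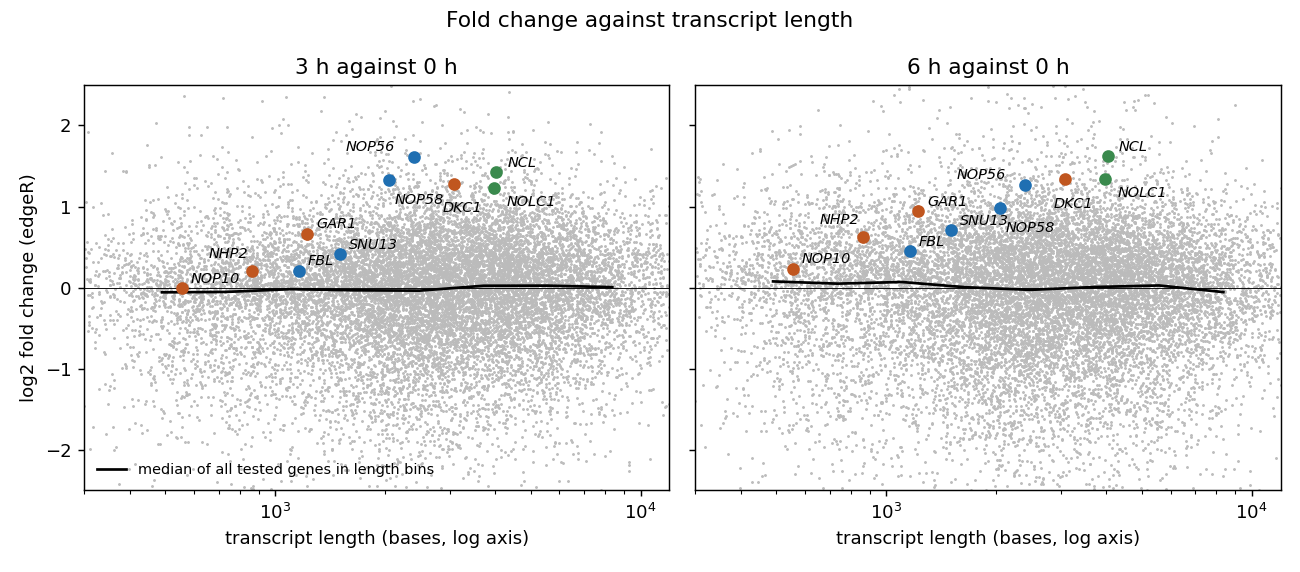
Log2 fold change (edgeR) against transcript length on a log axis, at 3 h against 0 h on the left and 6 h against 0 h on the right; grey points are the tested genes inside the drawn range, the line is their median in length bins, and coloured points are the 10 genes (blue box C/D, orange H/ACA, green NOLC1 and NCL). The 5 longer of the 10 genes lie above the 5 shorter in both panels, while the median of all genes stays near 0.

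The 4 genes that hold the listed guide RNAs, NOP56, NOP58, NCL and DKC1, are all among those 5 that rose most, and NOLC1 is the other. Their median log2 fold change was 1.38 at 3 h and 1.30 at 6 h, beside 0.31 and 0.67 for the 6 genes without a listed guide RNA. All 4 are also among the 5 longer transcripts, and holding a guide RNA was not tested apart from length. The guide RNAs themselves cannot be read from these libraries. Of the 13, 11 had 0 reads in all 9 libraries, and the others (SNORA75 and SNORA51) had at most 1 read in a library, with 5 reads in all. With 0 reads a guide RNA could still be present at up to 0.0516 to 0.0692 TMM-scaled CPM, depending on the library, a limit of 3 counts that covers counting error only. Of 907 snoRNA and scaRNA genes that were listed, 90 had any read, and their sum was 110 to 153 reads per library.

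Promoter windows from 250 bases before to 50 bases after a start were on hand for 7 of the 10 genes (RefSeq, GRCh38.p14), in 8 windows because GAR1 has 2 starts. The set shown gives FBL and NOP10 beside NOP56 and DKC1, the genes with a window that rose least and most at 6 h in each kind of particle. Capitals mark the E-box CACGTG, the motif that MYC and MAX are known to bind. All are 5′ to 3′ on the strand of the gene.
FBL, chr19:39846330-39846629, minus strand: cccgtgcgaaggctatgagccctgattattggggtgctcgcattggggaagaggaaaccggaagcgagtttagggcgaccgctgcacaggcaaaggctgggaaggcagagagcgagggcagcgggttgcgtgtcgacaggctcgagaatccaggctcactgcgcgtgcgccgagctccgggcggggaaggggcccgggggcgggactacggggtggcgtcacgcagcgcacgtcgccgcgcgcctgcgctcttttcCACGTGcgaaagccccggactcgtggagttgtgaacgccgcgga
NOP10, chr15:34343087-34343386, minus strand: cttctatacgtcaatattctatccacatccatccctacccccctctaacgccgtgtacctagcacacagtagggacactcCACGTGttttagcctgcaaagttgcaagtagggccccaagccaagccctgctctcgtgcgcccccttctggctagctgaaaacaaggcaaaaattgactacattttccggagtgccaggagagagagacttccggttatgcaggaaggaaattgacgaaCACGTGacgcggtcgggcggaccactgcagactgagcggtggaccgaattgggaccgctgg
NOP56, chr20:2652382-2652681, plus strand: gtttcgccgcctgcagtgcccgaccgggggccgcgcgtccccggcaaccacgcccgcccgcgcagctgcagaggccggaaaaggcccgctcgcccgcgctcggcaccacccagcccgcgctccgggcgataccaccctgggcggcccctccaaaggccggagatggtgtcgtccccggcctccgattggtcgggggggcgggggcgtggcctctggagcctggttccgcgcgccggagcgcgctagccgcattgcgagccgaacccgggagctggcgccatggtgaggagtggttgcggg
DKC1, chrX:154762614-154762913, plus strand: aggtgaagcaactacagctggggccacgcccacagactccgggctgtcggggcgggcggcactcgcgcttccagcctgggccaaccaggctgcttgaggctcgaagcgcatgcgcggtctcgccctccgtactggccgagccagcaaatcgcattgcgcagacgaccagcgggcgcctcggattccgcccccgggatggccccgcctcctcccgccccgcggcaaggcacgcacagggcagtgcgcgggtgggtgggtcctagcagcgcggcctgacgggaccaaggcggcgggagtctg

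The E-box starts at position 7 after the start of FBL and at positions -170 and -11 of NOP10, counting the first transcribed base as 1 and the base before it as -1. It was also in the window of the second GAR1 start, at position 32, and in none of the windows of NOP56, DKC1, NCL and NHP2. CACGTG is held by 7.26% of the 35116 promoter windows from RefSeq. The related letters CACGCG, searched on both strands, were in the windows of FBL and NHP2 and in 11.4% of all windows. CTTTGAT, the core of the TCF motif, was in 0 of the 8 windows and in 2.62% of all windows. CCGGAAG, an ETS core, was in FBL, GAR1 and NOP10 and in 10.3% of all windows. A match is a stretch of letters and not a measured binding site. A window without a match says nothing about sites further upstream or deeper in the gene. NOP58, SNU13 and NOLC1 had no window to search.

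The proteins that build snoRNPs were counted from a list. Of 12 listed assembly factors 11 had a row and were tested, and 8 rose and 2 fell at 3 h, with a median log2 fold change of 0.79. At 6 h 9 rose and 1 fell, with a median of 0.66. The shares over all tested genes were 32.8% higher and 33.5% lower at 3 h, and 35.7% and 35.0% at 6 h. ZNHIT6 (BCD1), a box C/D assembly factor, rose 2.25-fold at 3 h and 2.29-fold at 6 h, and NUFIP1, a platform protein that binds SNU13, rose 2.33-fold at 6 h. PHAX and TGS1, which act in the transport of snoRNAs and the trimethylation of their caps, rose 1.92-fold and 1.94-fold at 3 h and were lower at 6 h than at 3 h, by log2 fold changes of -0.28 and -0.24. SHQ1, which holds dyskerin before it joins the RNA, rose 1.90-fold at 6 h.

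The 4 listed proteins of the R2TP chaperone complex, which helps to assemble box C/D particles, were split. RUVBL1, an ATPase of the complex, was lower at 3 h and at 6 h, with log2 fold changes of -0.33 (SE 0.053) and -0.30 (SE 0.053). RPAP3, its scaffold, was lower at 3 h by a small margin (log2 fold change -0.12, edgeR adjusted p = 0.0499) that passed in only 1 of the 9 fits that left out a library, the one without untreated replicate 3 (adjusted p 0.00520 to 0.178 over the 9). It was higher at 6 h than at 3 h, with a log2 fold change of 0.70 (SE 0.051). RUVBL2, the second ATPase, rose at 3 h and at 6 h (0.18 and 0.46), and PIH1D1 had log2 fold changes of -0.10 and -0.06 that did not pass (adjusted p = 0.230 and 0.456). RUVBL2 and PIH1D1 were named after their values were seen.

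The listed U4 snRNP and U3 snoRNP partners of SNU13 rose with it, and fewer of the Cajal body list did. Of the 5 listed proteins of U4 snRNP and U3 snoRNP all rose at 3 h and at 6 h, with median log2 fold changes of 1.06 and 1.09. RRP9, the U3-specific protein that binds next to SNU13, rose 2.56-fold at 3 h and 3.59-fold at 6 h. PRPF31, which binds SNU13 on U4 snRNA, rose 2.51-fold at 6 h, and PRPF3 and PRPF4 rose 2.08-fold and 2.19-fold at 3 h. Of 7 partners of the Cajal body, telomerase and nucleolus 3 rose and 0 fell at 3 h, with a median of 0.05. At 6 h 5 rose and 0 fell, with a median of 0.24. The other 4 at 3 h and 2 at 6 h did not pass. Over all tested genes 32.8% rose at 3 h and 35.7% at 6 h. COIL, the coilin of Cajal bodies, rose 2.22-fold at 3 h and stood 1.57-fold above 0 h at 6 h. TCOF1, the treacle protein that shares sequence features with NOLC1, rose 1.81-fold at 6 h, and NPM1, nucleophosmin, rose 1.60-fold at 6 h.

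Enzymes that modify ribosomal RNA without a guide RNA were compared with the guided set. Of 11 listed methyltransferases, acetyltransferases and cofactors 10 were tested, and 9 rose at 3 h and 10 at 6 h. Their median log2 fold changes were 0.38 and 0.64, and 32.8% and 35.7% of all tested genes rose at those times. NOP2, a cytosine methyltransferase of the large subunit RNA, rose 2.95-fold at 3 h and 3.04-fold at 6 h, a size like that of NOP56 and NCL. NAT10, the cytidine acetyltransferase, rose 2.38-fold at 3 h and 3.12-fold at 6 h, and FTSJ3, a ribose methyltransferase of precursor ribosomal RNA, rose 1.62-fold and 2.76-fold. EMG1, a pseudouridine methyltransferase, was 1.97-fold higher at 6 h than at 3 h.

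Of 12 pseudouridine synthases that work without a guide RNA 10 rose and 2 fell at both times. Their median log2 fold changes were 0.57 at 3 h and 0.75 at 6 h. Among all tested genes 32.8% and 35.7% rose at these times, and 33.5% and 35.0% fell. PUS7 rose 1.69-fold at 3 h and 2.42-fold at 6 h. RPUSD4, a mitochondrial synthase, rose 2.13-fold at 3 h and 2.04-fold at 6 h, and PUS1 rose 2.12-fold at 6 h. RPUSD3, also mitochondrial, and PUS10 were lower, with log2 fold changes of -0.92 and -0.27 at 3 h and -0.61 and -0.41 at 6 h. Without 3 h replicate 7 the 3 h change of PUS10 did not pass (-0.24, edgeR adjusted p = 0.0548). DKC1, with 1.28 and 1.34, lay above all 12 in log2 fold change at both times.

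For scale, 17 of 20 small subunit processome genes rose and 0 fell at 3 h, and 19 rose and 0 fell at 6 h, with median log2 fold changes of 0.90 and 1.12. Of 19 tested large subunit assembly factors 18 rose at 3 h and 19 at 6 h, with 0 lower and medians of 1.17 and 1.40. Over all tested genes 32.8% rose and 33.5% fell at 3 h, and 35.7% rose and 35.0% fell at 6 h. NOL6 rose 4.70-fold at 6 h and RRP15 3.50-fold, both above any of the 10 genes at that time. The medians of the 10 genes, 0.95 and 0.96, lay near that of the small subunit list at 3 h and below both lists at 6 h. With library size alone in place of TMM, which shifts the median of all tested genes at 3 h to -0.22, the counts of genes higher and lower at 3 h were 6 and 3 for the assembly factors, 2 and 2 for the Cajal body list, 6 and 1 for the guide-free rRNA enzymes, and 17 and 2 for the processome. Among all tested genes, 3468 were higher and 7451 lower at 3 h with library size alone. All these lists, like the 10 genes, were chosen with results of these data known.

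**Figure D5:**
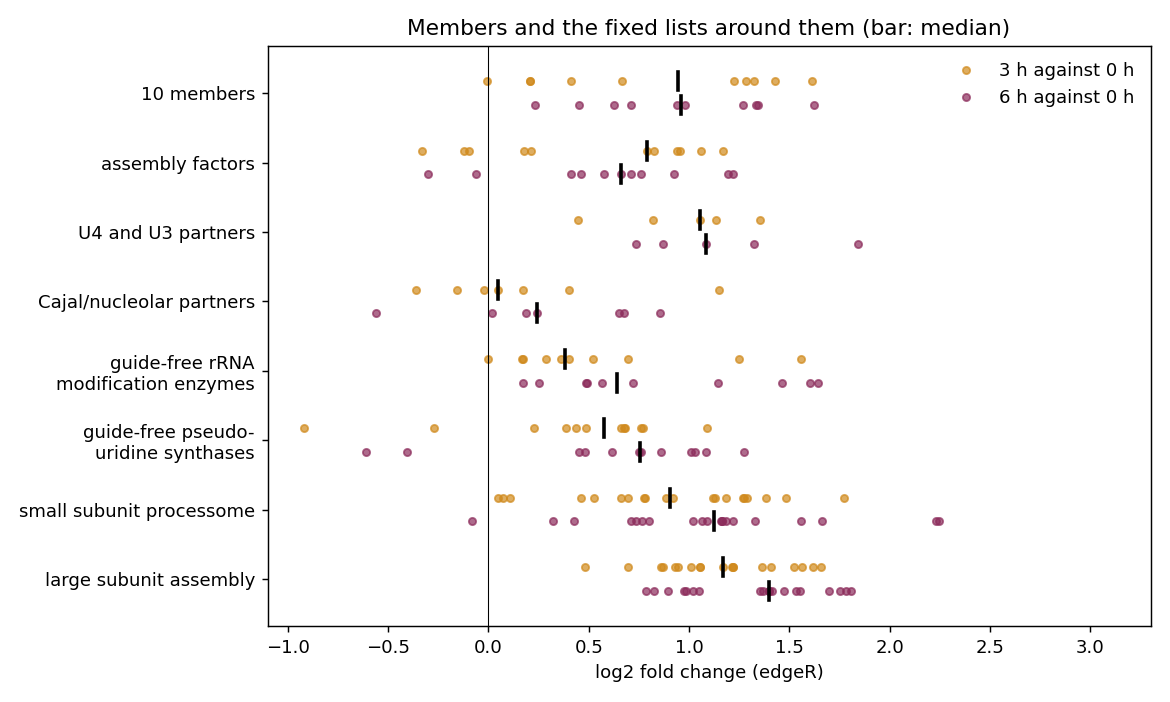
Log2 fold change (edgeR) of the tested genes of each list at 3 h against 0 h (upper row) and 6 h against 0 h (lower row); each point is a gene and black bars are medians. Medians of the 10 genes are 0.95 and 0.96, and the large subunit assembly list has the highest medians of those drawn, 1.17 and 1.40.

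The genes whose pair of changes lay closest to the median pair of the 10 were sought among 8915 named genes with at least 10 CPM. The nearest 6 were NAA15, a subunit of the main amino-terminal acetyltransferase, HUS1 of a DNA damage checkpoint clamp, the noncoding snoRNA host SNHG20, the cohesin subunit STAG1, POLR1B, a large subunit of RNA polymerase I, and SRP68 of the signal recognition particle. Their distances from the median pair were 0.011 to 0.034 log2 units, and POLR1B, for example, had log2 fold changes of 0.95 at 3 h and 0.99 at 6 h. None of the 10 genes themselves lay that close, and they spread from -0.01 to 1.62 at 3 h.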

How the data were processed

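RNA sequencing libraries of Ramos cells at 0 h, 3 h and 6 h in CHIR99021 were used, 3 biological replicates per group. The unit is the raw count of reads for each Ensembl gene, as the authors deposited it, in whole numbers. Per the submitters' processing notes, the tools were GSNAP and HTSeq 0.6.0 with build hg19, and limma 3.30.0 is also listed. The annotation release, strand setting and counting mode are not given in the sources used here. Beside 60234 gene identifiers, 5 summary entries of HTSeq were left out of all library sizes and tests. Reads in genes were 67.6% to 70.9% of each library.

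Symbols were matched by gene identifier for 51997 identifiers. Lengths, GC content and gene coordinates came from GENCODE v29 (GRCh38), promoters from RefSeq (GRCh38.p14), and neither was converted between builds. Of 137 list entries, 4 had no row.

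Counts were tested in R 4.3.3 with edgeR 4.0.16: filterByExpr (minimum count 10, minimum total 15) kept 15847 of 28412 genes with reads, TMM set the library factors, and the robust quasi-likelihood fit used all 9 libraries and 1 mean for each time (6 residual degrees of freedom, biological coefficient of variation 6.53%). Tests were two-sided, with Benjamini-Hochberg adjustment over all tested genes and a threshold of 0.05. Levels per kb divide CPM by the length of 1 transcript per gene. The procedure was also run on simulated counts with few changed genes, which does not check the scaling under the wide change seen here.

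The 10 genes and all lists were chosen with earlier results of these data known. All 10 are described, and of each other list the 3 genes with the smallest p per comparison and any that moved against the majority of its list could be named. Other settings tried were limma-voom (limma 3.58.1), DESeq2 1.42.0, other size factors, other filters, a minimum fold of 1.2, the compared groups alone, and leaving out each library. Removal of trends over length and GC content was added after seeing the data.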

Additional observations from a re-analysis of the deposited data

Results flagged for a closer look

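Between 6 h and 3 h, 8 of the 10 genes differed in their change against the shared 0 h libraries, by the edgeR test of 6 h against 3 h itself. Of all tested genes, 43.4% passed that test in either direction. The log2 fold changes of 6 h over 3 h were -0.35 for NOP56 and -0.35 for NOP58, both lower at 6 h. They were 0.42 for NHP2, 0.30 for SNU13, 0.27 for GAR1, 0.24 for FBL, 0.24 for NOP10 and 0.20 for NCL, all higher at 6 h. All of these are smaller than a 2-fold difference. None of the 8 passed when a minimum fold of 1.2 was asked for, with NOP56 the nearest at an adjusted p of 0.0543.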

How the results depend on the processing

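The calls of NOP56, NOP58, NCL, DKC1, NOLC1, GAR1 and SNU13 against 0 h passed under every alternative run. Leaving out 1 library at a time gave 8 to 9 of the 10 genes higher and 0 lower at 3 h, 10 higher and 0 lower at 6 h, and 6 to 7 higher and 2 lower between 6 h and 3 h. Genes passing among all tested numbered 4885 to 5332 higher and 4862 to 5443 lower at 3 h, 5297 to 5780 and 5304 to 5798 at 6 h, and 2813 to 4008 and 2926 to 4095 between 6 h and 3 h. Upper-quartile factors and library size alone lower the median of all tested genes at 3 h to -0.17 and -0.22. With either, 1 of the 10 genes, NOP10, was lower at 3 h, and 7 were higher. Of the 15847 tested genes, 3852 and 3468 were then higher at 3 h and 6854 and 7451 lower. Among the genes that passed at 3 h, 36.0% and 31.8% were higher, against 49.5% with TMM. At 6 h 3656 genes were higher with library size alone. Under a minimum fold of 1.2, 3453 genes were higher at 3 h, and between 6 h and 3 h 0 of the 10 genes were higher and 0 lower, with 1136 and 1368 among all tested. Without mitochondrial reads the summed share was 0.309%, 0.615% and 0.650% at 0 h, 3 h and 6 h.

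The sign of NOP10 at 3 h turned to 0.0095 with no filter and 0.0063 with length and GC trends removed, and ranged from -0.048 to 0.052 over the fits without 1 library (0.052 without untreated replicate 3, 0.039 without 3 h replicate 6), and at 6 h it was -0.0016 with library size alone. With library size alone the sign also turned at 3 h for EMG1 (-0.034), IMP4 (-0.13), TCOF1 (-0.031) and UTP18 (-0.15), and between 6 h and 3 h for PRPF3 (-0.0032), RUVBL1 (-0.0044) and ZNHIT6 (-0.010). With upper-quartile factors it turned at 3 h for IMP4 (-0.079) and UTP18 (-0.10), and without 6 h replicate 9 it turned between 6 h and 3 h for RUVBL1 (-0.0016, in a range of -0.0016 to 0.077). The cause was not tested. Between 6 h and 3 h the NOLC1 call passed with upper-quartile factors, with the compared groups alone and without length and GC trends (adjusted p = 0.0443, 0.0417 and 0.00601). No paired analysis was possible because the replicate numbers of the 3 groups are not shared. The guide RNAs had at most 1 read each per library, too few for any comparison, and the cause was not tested.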
